A study of Homo sapiens with 4 samples.

Results

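Peaks of the transcription factor ONECUT2 in the histone and tRNA gene clusters of chromosome 6 were taken from 3 deposited lists. A member was any listed region on chromosome 6 whose start lay from 26 to 29 Mb in the human build hg19. Replicate 1 had 112 such peaks of 14431 in all, replicate 2 had 91 of 11990, and a list from an irreproducible discovery rate (IDR) procedure had 20 regions of 4297. The rest of chromosome 6, with 713 and 593 peaks and 190 IDR regions, served for comparison. The rule used position only and no measured value.

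The data came from chromatin immunoprecipitation followed by sequencing (ChIP-seq) in 22Rv1, an established human castration-resistant prostate carcinoma cell line. The labels name 2 ChIP libraries, made with an anti-ONECUT2 rabbit antibody, and 2 of input DNA, which is chromatin that was not immunoprecipitated. The labels name no treatment and no genetic change for any of the 4. Separate cultures for the ChIP libraries are not mentioned, so the spread between replicates may be technical.

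ONECUT2 carries a CUT domain and a homeodomain and belongs to the family of hepatocyte nuclear factor 6. It is known from liver, retinal and neuronal development, and in prostate cancer it is studied as a regulator of lineage and of androgen receptor activity. Replication-dependent histone genes are short and lack introns, are transcribed mainly in S phase, and give mRNAs that end in a stem-loop instead of a poly(A) tail. Transfer RNA genes are transcribed by RNA polymerase III from promoter elements inside the gene.

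The size of these clusters can be read from RefSeq, whose gene table is of another build (GRCh38.p14) and was used for names, counts and gene order only. Chromosome 6 carried 155 of its 465 tRNA genes (33.3%) and 55 of its 73 clustered histone genes (75.3%). The chromosome 6 genes coded for H1 (6 genes), H2A (12), H2B (15), H3 (10) and H4 (12). In the order of the table, 32 histone and 13 tRNA genes lay from H1-1 up to BTN3A2, the first of 6 butyrophilin genes. From BTN3A2 up to PRSS16 there were 5 histone and 44 tRNA genes, and from PRSS16 up to OR2B2 16 histone and 43 tRNA genes. From OR2B2 up to TRIM27 there were 35 tRNA genes, no histone gene and 9 genes of the SCAN-domain zinc-finger families ZSCAN and ZKSCAN. That the window from 26 to 29 Mb covers most of these clusters in hg19 is background knowledge. The totals for chromosome 6 are not counts of the window. No hg19 annotation was used here, so no peak was assigned to a gene, an exon, an intron or an intergenic stretch.

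Nor were the bases under the peaks read, since no hg19 sequence was used here. The promoters of the chromosome 6 histone genes were scanned instead, in a step chosen after the peaks had been seen, to show what a recognition core of the ONECUT family looks like in these genes. RefSeq gave 54 promoter entries for 50 of the genes, and the 250 bases before each gene start were searched on both strands. The core ATTGAT, or ATCAAT on the other strand, was present in 11 of 54 entries (20.4%), against 5.58% of all 35116 promoter entries. The 11 entries held only 7 distinct stretches when the core and a few bases on either side were compared. Neighbouring or similar genes can hold the same one. The 11 are thus not 11 different sequences, and separate sites in the genome were not counted. Another motif, CCAAT or ATTGG on the other strand, was also more frequent in these promoters, in 87.0% of the entries against 32.0% of all. The core ATCGAT was present in none of the 54 and in 0.655% of all entries. The median GC content was 41.4% in the histone promoters and 58.0% in all promoters, and its part in the difference was not tested. The 3 stretches below were picked because the core of each, with a few bases around it, lies before more than 1 histone gene. The other printed bases are those of the named gene and were not compared between genes. They are given 5′ to 3′ on the strand of the named gene, with the core in capitals.
H3C4 (also before H2AC7 and H2BC7): aaaagcttacacATTGATtggatgaattgt
H4C11 (also before H4C12): gtATTGATgtatatcttctgcgttcaaaag
H2AC17 (also before H2BC17): gatgacgttaatATCAATatagtccaatca
All are GRCh38.p14, chromosome 6, on the minus strand for H3C4 and H2AC17 and on the plus strand for H4C11. Counted from the gene start, the core lay at -155 to -150 in H3C4, at -248 to -243 in H4C11 and at -139 to -134 in H2AC17. A matching core is a description of these letters and was not linked to any peak.

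Whether ONECUT2 peaks were denser in these clusters than elsewhere on the chromosome was examined first. The window held 37.3 peaks per Mb in replicate 1 (exact Poisson interval 30.7 to 44.9) and 30.3 in replicate 2 (24.4 to 37.2). The rest of chromosome 6 held 4.25 (3.94 to 4.57) and 3.53 (3.25 to 3.83). The window was thus 8.79 times as dense in replicate 1 (exact conditional interval 7.14 to 10.7) and 8.59 times in replicate 2 (6.81 to 10.7), or 8.69 ± 0.143 (SD, n = 2). The interval of each replicate lies far above 1, and the replicates differed by less than either interval is wide. With 1.76% of the length of chromosome 6, the window held 13.6% of its replicate 1 peaks and 13.3% of its replicate 2 peaks. All intervals are at 95% and reflect counting error alone, as peaks that lie close together are not independent. With 2 libraries no test between samples can pass a threshold, and none was run.

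In the IDR list, made by a procedure designed to retain regions with similar ranks across replicates, the window held 6.67 regions per Mb (interval 4.07 to 10.3). The rest of the chromosome held 1.13 (0.977 to 1.30), a ratio of 5.89 (3.52 to 9.36). When chromosome 6 from 2 Mb on was divided into 57 windows of 3 Mb in step with this one, it ranked 1st in all 3 lists. It had 112, 91 and 20 regions, against medians of 12, 10 and 3. The window that ranked 2nd in both replicates, from 137 to 140 Mb, had 44 and 28 peaks, and the IDR list had 13 regions in its own 2nd window, from 35 to 38 Mb. The neighbour from 23 to 26 Mb had 7, 10 and 3.

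**Figure D1:**
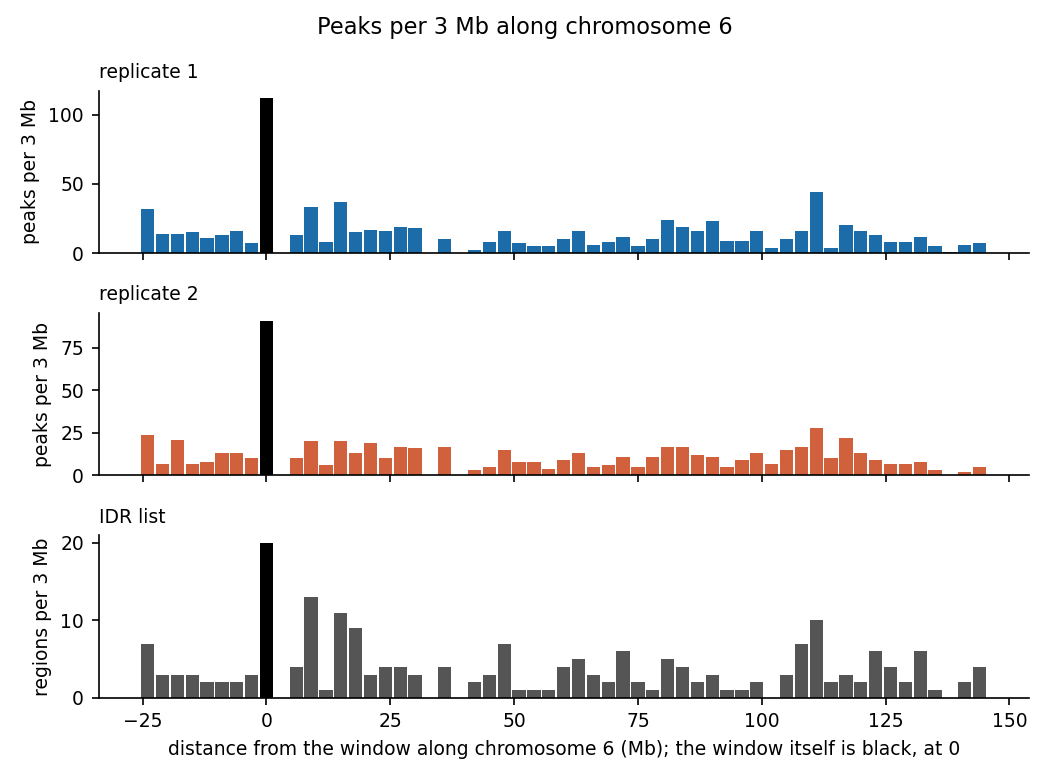
Peaks or IDR regions per 3 Mb (vertical axis) along chromosome 6 from 2 Mb on, for replicate 1, replicate 2 and the IDR list. The horizontal axis gives the distance from the window in Mb. The window is the black bar at 0 and is the tallest in each list, with 112 and 91 peaks and 20 regions, and the next 3 Mb on its right are empty.

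The high density ended inside the window. The last member ended at 28349968, and no list used here held a peak from 28349969 to 34024407, a stretch of 5.67 Mb that covers the last part of the window. Its cause was not tested, and occupancy in it was not analysed here. The first peak after the stretch was not the same in the replicates. It began at 34024408 in replicate 1, with a fold enrichment of 2.49, and at 34191827 in replicate 2, with 7.74. The last peak before 26 Mb also differed, at 25597236 (5.58) in replicate 1 and 25963183 (3.25) in replicate 2. The first peak inside began at 26020606 (4.36) in replicate 1 and at 26020648 (2.08) in replicate 2. Up to the last member the window had 47.7 peaks per Mb in replicate 1, 38.7 in replicate 2 and 8.51 regions per Mb in the IDR list. Without the empty stretch, the ratios to the rest of the chromosome were 10.9 (interval 8.84 to 13.3), 10.6 (8.43 to 13.3) and 7.29 (4.36 to 11.6).

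Within the window the peaks lay in 3 blocks set apart by stretches without any. The first block, from 26 to 26.6 Mb, held 46 peaks in replicate 1, 40 in replicate 2 and 11 IDR regions. The second, from 27 to 27.9 Mb, held 54, 42 and 7. The third, from 28 to 28.4 Mb, held 12, 9 and 2. Every member fell in a block, and the 400 kb from 26.6 to 27 Mb were empty in all 3 lists.

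The fullest 100 kb ran from 26.1 to 26.2 Mb, with 15 peaks in replicate 1 and 10 in replicate 2, but only 1 IDR region. The stretch from 27.8 to 27.9 Mb came 2nd in replicate 1 with 11 peaks, had 6 in replicate 2 and had no IDR region. The IDR list was fullest from 26.5 to 26.6 Mb, with 4 regions over 8 peaks in each replicate. By 500 kb, the fullest bin was the first, from 26 to 26.5 Mb, with 38 and 32 peaks and 7 IDR regions. The bin from 28.5 to 29 Mb had none, and the bin from 27.5 to 28 Mb had 29 and 17 peaks and no IDR region. Over the 30 bins of 100 kb, 11 were empty in both replicates and none was empty in only 1 of them. The counts of the replicates had a Pearson r of 0.928 and a Spearman rho of 0.966 over these bins, of which 11 are empty in both.

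**Figure D2:**
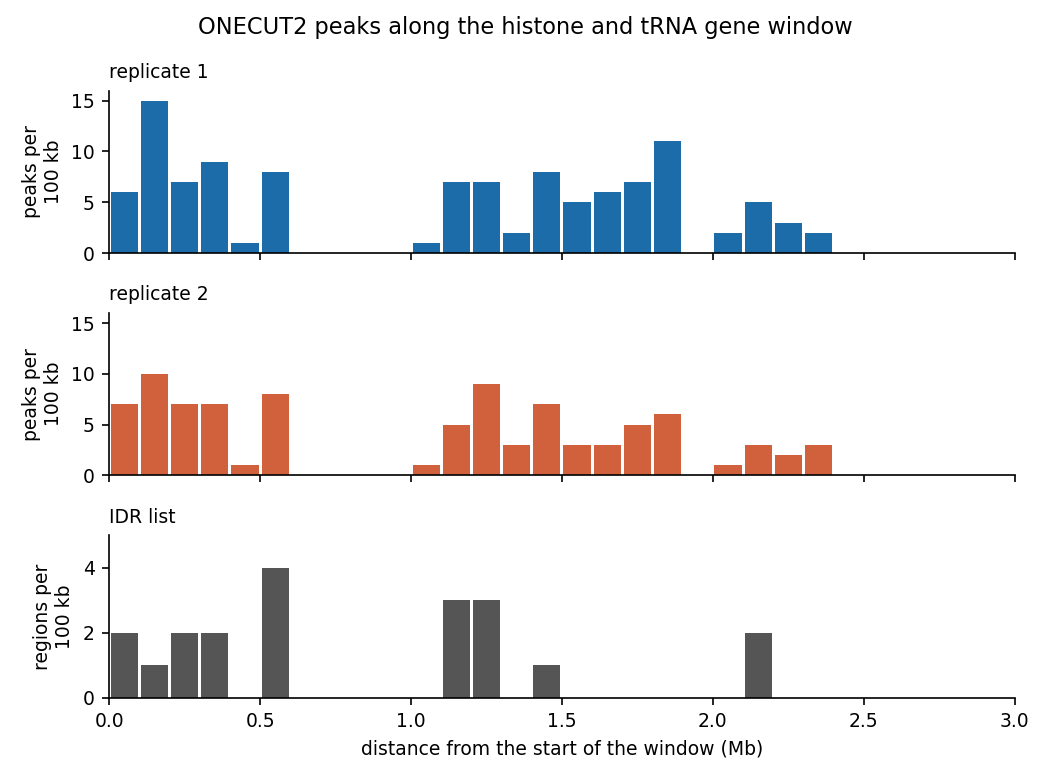
Peaks or IDR regions per 100 kb (vertical axes) along the window, by distance from its start in Mb (horizontal axis). Both replicates show the same blocks, with the fullest bin (15 and 10 peaks) from 0.1 to 0.2 Mb. The IDR list has no region from 1.5 to 2.1 Mb. There the replicates have peaks, except in the bin at 27.9 to 28 Mb of the chromosome, which is empty in both.

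Peaks in the blocks often lay side by side. The next peak of the same list began within 10 kb for 64 of 112 members in replicate 1 (57.1%, exact Clopper-Pearson interval 47.4% to 66.5%) and for 49 of 91 in replicate 2 (53.8%, 43.1% to 64.4%). Over the rest of the chromosome the shares were 34.0% (30.5% to 37.6%) and 31.3% (27.5% to 35.2%). The median step from one peak to the next was 6.72 kb and 6.80 kb in the window, against 60.1 kb and 79.2 kb elsewhere. A closer spacing follows in part from the higher density itself. Joining peaks whose starts were at most 10 kb apart gave 48 groups in replicate 1, of which 22 were single peaks, and 42 groups in replicate 2, of which 17 were single.

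The largest group was the same place in both lists. In replicate 1 it had 8 peaks over 19.1 kb, from 26312714 to 26331837, and 7 of them overlapped a replicate 2 peak. In replicate 2 it had 6 peaks over 19.5 kb, from 26312433 to 26331912, and all 6 overlapped a replicate 1 peak. The median fold enrichment of the group was 4.28 and 4.94. Replicate 2 had another group of 6 peaks from 27262768 to 27271881, where replicate 1 had 5 peaks, from 27263490 to 27271811.

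How strongly the members were enriched was examined next. Fold enrichment is the authors' ratio of ChIP fragments at the summit to an input background. It ranged from 1.86 to 20.4 in replicate 1, with a median of 3.66, and from 2.08 to 19.98 in replicate 2, with a median of 3.65. The rest of the chromosome had medians of 3.34 and 3.45, and the whole lists 3.28 and 3.41. Only 6 of 112 members in replicate 1 had a fold enrichment of at least 6 (5.36%, interval 1.99% to 11.3%), against 7.46% of the whole list. In replicate 2, 6 of 91 did (6.59%, 2.46% to 13.8%), against 7.08%. On the rest of chromosome 6 the shares were 7.01% and 7.93%, within both intervals. Per Mb, such peaks were still denser in the window, with 2.00 against 0.298 in replicate 1, a ratio of 6.71 (interval 2.35 to 15.7), and 2.00 against 0.280 in replicate 2, a ratio of 7.14 (2.50 to 16.7).

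Between these ends, 21 members of replicate 1 had a fold enrichment below 3, 54 from 3 to 4 and 31 from 4 to 6. In replicate 2 these numbers were 17, 45 and 23. Below 3 lay 18.8% and 18.7% of the members, against 35.6% and 28.5% of the other peaks of the chromosome. By block, the median was 3.91 and 3.71 in the first, 3.60 and 3.64 in the second and 3.05 and 3.42 in the third. All 6 members of fold 6 or more lay in the first block in replicate 1, while replicate 2 had 4 there and 2 in the second.

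The slightly higher medians came with a lower median denominator and not with more fragments, though by a small margin in replicate 2. The number of ChIP fragments at a summit, recovered from the deposited fold enrichment and p-value, had a median of 26 in replicate 1 and 28 in replicate 2, with ranges of 17 to 120 and 19 to 129. On the rest of the chromosome the medians were 33 and 29. The input background under the members had a median of 6.13 and 6.14 fragments, against 9.20 and 6.67 elsewhere on the chromosome. Its lower quartile in replicate 2 went the other way, with 5.12 against 4.87. A background above 10 fragments lay under 17 members of replicate 1 (15.2%, interval 9.10% to 23.2%), against 46.7% on the rest of the chromosome and 50.8% of the whole list. In replicate 2 it lay under 16 (17.6%, 10.4% to 26.98%), against 36.3% and 38.5%. The smallest background of each list, 4.37 and 4.87 fragments, lay under 24 members of replicate 1 (21.4%, against 16.3% of the list) and 19 of replicate 2 (20.9%, against 27.5%). Such peaks share 1 background value per list, so their folds differ by the number of fragments alone. Fragment and background numbers of this size limit the precision of each fold value.

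**Figure D3:**
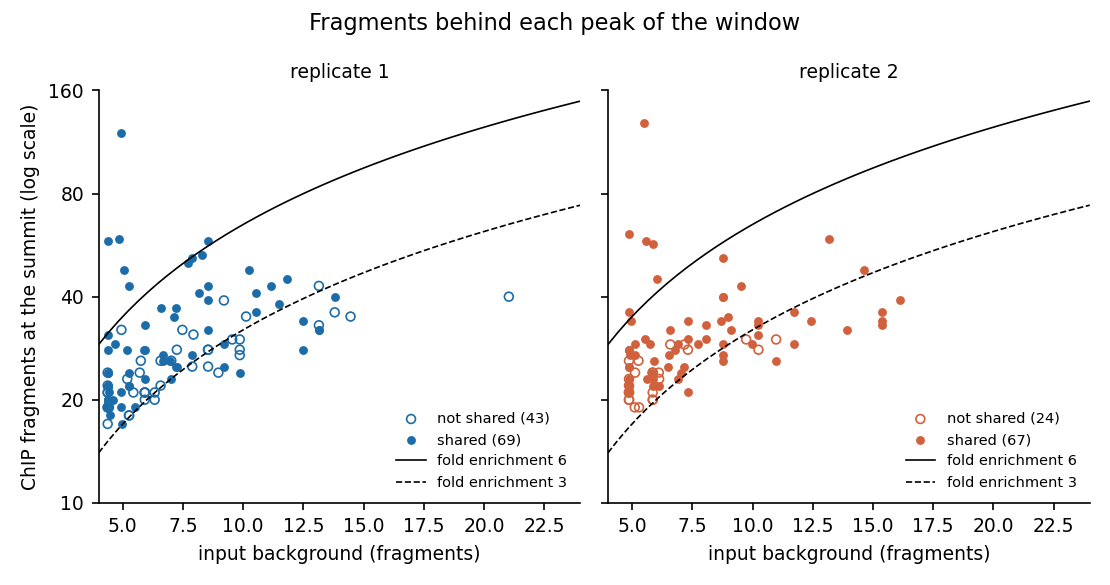
ChIP fragments at the summit (vertical axis, log scale) against input background in fragments (horizontal axis) for the 112 members of replicate 1 and the 91 of replicate 2. Filled points overlap a peak of the other replicate (69 and 67), open points do not (43 and 24), and the lines mark a fold enrichment of 6 and of 3. Most points crowd at the left with 17 to 40 fragments, and 1 peak stands far above the rest in each replicate, with 120 and 129 fragments.

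Whether the replicates marked the same places was then asked. In replicate 1, 69 of 112 members (61.6%, interval 51.9% to 70.6%) overlapped a replicate 2 peak by at least 1 bp, against 53.7% on the rest of the chromosome and 51.1% of the whole list. In replicate 2, 67 of 91 (73.6%, 63.3% to 82.3%) overlapped a replicate 1 peak, against 66.9% and 64.5%. Both shares were higher in the window, but its intervals overlap those of the rest of the chromosome. In replicate 1 the whole-list share lay just below the interval of the window. A difference in overlap was not tested. With summits within 100 bp of each other the shares were 32.1% and 40.7%.

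By fold class, the members followed the lists as a whole. All 6 members of fold 6 or more were shared in each replicate, against 99.8% and 99.4% of such peaks in the whole lists. From 4 to 6, 25 of 31 (80.6%) and 19 of 23 (82.6%) were shared, against 82.9% and 73.9%. From 3 to 4, 29 of 54 (53.7%) and 28 of 45 (62.2%) were shared, against 49.5% and 48.1%. Below 3 these were 9 of 21 (42.9%, interval 21.8% to 66.0%) in replicate 1 and 14 of 17 (82.4%, 56.6% to 96.2%) in replicate 2, against 29.2% and 74.8%. The whole-list share lay within the interval of the members in each class. By block, 33 of 46 replicate 1 peaks and 33 of 40 replicate 2 peaks were shared in the first, 29 of 54 and 27 of 42 in the second, and 7 of 12 and 7 of 9 in the third. Shared members had a median fold of 3.91 in replicate 1, against 3.18 for the 43 that were not shared, and 3.73 in replicate 2, against 3.58 for 24. The strongest member without a partner in replicate 1 ran from 27146194 to 27146472, with a fold of 5.55 and 32 fragments, and a replicate 2 peak began or ended 236 bp away. In replicate 2 it ran from 27471212 to 27471596, with a fold of 4.60 and 26 fragments, 142 bp from a replicate 1 peak.

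When each peak was used once, the window had 64 pairs. Fold enrichment was higher in replicate 1 in 33 of them, against 228 of 354 pairs on the rest of the chromosome. The median log2 ratio of replicate 2 to replicate 1 was -0.02 in the window, with an SD over pairs of 0.35, and -0.13 with an SD of 0.33 elsewhere. Fold enrichments had a Spearman rho of 0.578 over the window's pairs and 0.792 over the others. Over the same pairs, background had a rho of 0.853 in the window and 0.921 elsewhere. The denominators were 1 input profile on 2 scales wherever this could be checked, so the backgrounds there were not independent between replicates. Across the whole lists, 45 pairs had identical summits and backgrounds above the smallest value. In all 45, replicate 2 background was 1.11 times that of replicate 1, within 0.1% of the ratio of the smallest values. Summits lay within 100 bp in 36 of the 64 pairs (56.3%), against 57.9% elsewhere, and the median distance was 85.5 bp.

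**Figure D4:**
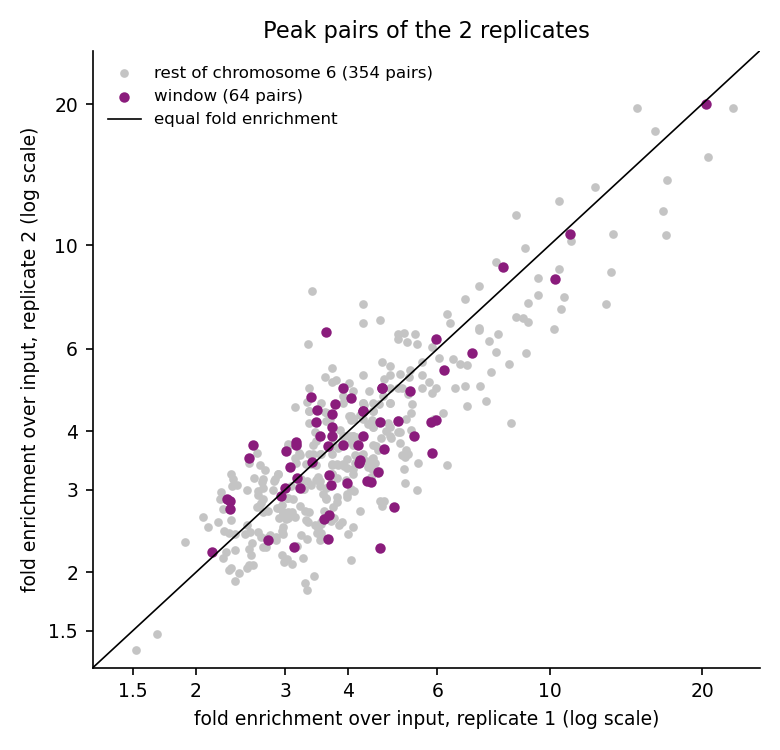
Fold enrichment over input in replicate 2 (vertical axis) against replicate 1 (horizontal axis), both on log scales, for the 64 peak pairs of the window and the 354 pairs on the rest of chromosome 6. The line marks equal values. The pair with 20.4 and 19.98 is the highest of the window, and most of its pairs lie between 2.2 and 5.9.

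The 10 pairs of highest mean fold enrichment are given with the value of each replicate, and 7 of them lay in the first block. The strongest peak ran from 26327483 to 26328564 in replicate 1, with a fold of 20.4 and 120 fragments, and from 26327487 to 26328821 in replicate 2, with 19.98 and 129. Its mean was 20.2 ± 0.268 (SD, n = 2), its summits lay 5 bp apart, and it ranked 3rd on chromosome 6 in replicate 1 and 1st in replicate 2. Over the whole lists its ranks were 21 and 12. It lay inside the largest group of neighbouring peaks, whose other members had folds of at most 6.18 in replicate 1 and 5.42 in replicate 2.

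The 2nd pair, from 26553550 to 26555499 in replicate 1, had folds of 10.98 and 10.6 (10.8 ± 0.297, SD, n = 2) and was the widest peak of the window in both lists, at 1950 and 1865 bp. Its summits were 8 bp apart, over the smallest background of each list. The 3rd pair, from 26365249 to 26366020, had 10.3 and 8.46 (9.36 ± 1.27, SD, n = 2), on nearly equal numbers of fragments, 59 and 57. The 4th pair, from 26054837 to 26056207, had 8.10 and 8.96 (8.53 ± 0.607, SD, n = 2). These 4 pairs were above 8 in both replicates.

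The 5th pair, from 26104031 to 26104579, had folds of 7.03 in replicate 1 and 5.89 in replicate 2. The 6th, from 27759602 to 27761072, was the strongest of the second block, with 5.95 and 6.30 and summits 26 bp apart. The 7th, from 26322309 to 26322650, had 6.18 and 5.42, on 58 and 52 fragments over backgrounds of 8.54 and 8.78. These 3 straddled a fold of 6, above it in 1 replicate and below it in the other.

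The 8th pair, from 26198207 to 26199207, had folds of 5.96 and 4.23. Its replicate 2 fragments were more numerous (59 against 52), over a background of 13.2 against 7.89, so the order of the replicates turned between fold and fragments. The 9th, from 27271430 to 27271811, had 5.29 and 4.89, with 29 fragments in each replicate. The 10th, from 27839941 to 27841286, had 3.62 and 6.53 (5.07 ± 2.06, SD, n = 2), the widest spread of the 10. There the summits lay 601 bp apart, with 43 and 45 fragments over backgrounds of 11.2 and 6.05, so the 2 lists placed the summit at different points of an overlapping peak. The other 54 pairs had folds from 2.15 to 5.86 in replicate 1 and from 2.21 to 4.94 in replicate 2.

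The IDR list was set against the replicate lists last. Its 20 regions all overlapped a peak of at least 1 replicate, 17 of them in both replicates (85.0%, interval 62.1% to 96.8%) and 3 in replicate 1 only. In the regions from 26596348 to 26597887 and from 27144273 to 27146688, the peaks of the replicates did not overlap each other. On the rest of the chromosome 127 of 190 (66.8%, 59.7% to 73.5%) overlapped both and 29 neither, and in the whole list 63.3% overlapped both. In turn, 30 of 112 members of replicate 1 (26.8%, interval 18.9% to 36.0%) and 26 of 91 of replicate 2 (28.6%, 19.6% to 39.0%) fell in an IDR region, against 32.8% and 31.4% of the whole lists. The regions had a median width of 2303 bp, against 1804.5 bp on the rest of the chromosome. Their deposited signal, whose scale is unnamed, ran from 134 to 498 with a median of 165, against a median of 180 on the rest of the chromosome and 192 in the whole list.

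The region of highest signal (498), from 26327566 to 26328500, held the strongest pair and ranked 208th of 4297. The 2nd, from 26054793 to 26057846 with 294, held the 4th pair. The 3rd (236), from 28185080 to 28187383, was in the third block, over peaks with folds of 5.82 and 4.18. The 4th (230), from 26284998 to 26287465, had best folds of 5.86 and 3.60, and the 5th (227), from 26365101 to 26366301, held the 3rd pair. Among these 5 regions of highest signal, 3 held a pair with a mean fold above 8.

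Signal did not follow fold throughout. The 6th region (212), from 26596348 to 26597887, had best folds of only 3.58 and 2.58, with 31 and 28 fragments. The 2nd pair by fold, with 10.98 and 10.6, lay in a region of signal 153, from 26554111 to 26555128, which ranked 14th of the 20 and 3565th in the whole list. The region with the 5th pair, from 26103779 to 26104928, had a signal of 139 and ranked 19th. The 6th pair lay in no IDR region. Of the 64 pairs, 18 touched an IDR region, 5 of them among the 10 pairs of highest fold. The share for pairs elsewhere is not given here. Of single peaks with fold 4 or more, 35.1% in replicate 1 and 37.9% in replicate 2 overlapped an IDR region. On the rest of the chromosome these shares were 46.6% and 42.3%. At fold 6 or more, with 6 peaks per replicate in the window, they were 83.3% and 66.7%, against 80.0% and 61.7%.

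The remaining regions lay in the first and second blocks, with 1 in the third. In the first block, the regions from 26571707 to 26573534 (signal 192) and from 26223545 to 26225820 (159) had best folds of 4.71 and 4.74, and of 4.05 and 4.72. The region from 26043012 to 26046561 (153) had 2.15 and 2.21, on 28 and 32 fragments, and the region from 26520168 to 26521839 (162) had a replicate 1 peak only. That peak had the lowest fold of the replicate 1 members, 1.86, and 40 fragments over the highest background, 21.0.

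In the second block, 5 regions had a peak in both replicates and a signal above 150. They ran from 27203174 to 27207368 (191), from 27100073 to 27102374 (183), from 27261960 to 27264704 (168), from 27112577 to 27115509 (163) and from 27144273 to 27146688 (153). Their best folds were between 3.46 and 5.55 in replicate 1 and between 3.37 and 4.57 in replicate 2. The region from 27439453 to 27441743 (134) had 3.37 and 2.34 and was among the lowest of the whole list, at rank 4294. The regions from 27247009 to 27249442 (149) and, in the third block, from 28102651 to 28105496 (141) had peaks in replicate 1 only, with best folds of 3.04 and 3.88.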

How the data were processed

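Per the submitters' processing notes, MACS2 2.1.1, Picard, BWA 0.7.13-r1126 and the build hg19 were used, with no roles given. Per the file headers, MACS2 made both replicate lists. They hold, as deposited, a fold enrichment (a ratio of ChIP to input), −log10 p-values, −log10 q-values of at least 1.32 and a score for every peak. The IDR list is an optimal set per the file headers, and its deposited signal and score have no stated scale. These values are the authors' and served to describe, rank or filter peaks. The sources used here give no calling settings, no read totals and no account of how the 2 input libraries were used.

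Fragments n and background b were recovered from fold = (n + 1)/(b + 1) and the upper Poisson tail. A whole n matched within 0.001 on the −log10 p scale for 112 of 112 and 91 of 91 members. The inversion and overlap steps were tested on simulated data. Positions count from 1. The length of chromosome 6 was taken to its last peak, leaving 167.9 Mb outside the window. Regions named by rule are the 10 pairs of highest mean fold, all IDR regions of the window, its fullest and emptiest bins and the strongest unshared peak per list. Other regions named were chosen after their values were seen. Members, lists and comparisons were chosen with earlier results of these data known. Python 3.11.15, SciPy 1.17.1 and pandas 2.3.3 were used.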

Additional observations from a re-analysis of the deposited data

How the results depend on the processing

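Of 35 alternative values, 17 stayed within the replicate SD or interval of their result and 18 did not, and causes were not tested unless stated. Alternatives with only peaks of fold 6 or more, only shared peaks, lengths without the empty stretch, or fragments for fold were chosen after seeing the data. The density ratio of 8.69 was 9.27 with −log10 q of at least 5, 8.41 without 5 Mb on either side, 7.56 against all other autosomes, 7.72 with peaks under 1 kb apart merged, 6.93 at fold 6 or more, 9.76 for shared peaks and 10.8 without the empty stretch. It was 8.59 to 8.79 with 1 replicate left out. The ratio of median folds of 1.08 was 1.04 with −log10 q of at least 5 and turned to 0.877 for fragments. That turn lay mainly in replicate 1, with median fragments of 26 against 33, while replicate 2 had 28 against 29. The overlap shares of 61.6% and 73.6% became 36.6% and 45.1% with 50% reciprocal overlap and 32.1% and 40.7% with summits within 100 bp, and the second was 61.1% with −log10 q of at least 5. The share of 5.98% at fold 6 or more was by construction larger at fold 4 (32.5%) and smaller at fold 10 (2.44%). Likewise by construction, the share with a next peak within 10 kb (55.5%) was smaller at 5 kb (42.1%) and larger at 20 kb (70.5%). Planned steps on genes and recognition sequences under peaks need an hg19 genome and were left out. No paired analysis was possible because ChIP and input are combined within each deposited list. Fragment numbers at summits, with medians of 26 and 28, limit each fold.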
